A study of Mus musculus with 9 samples.

Results

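The genes described here are 29 genes of cholesterol metabolism, chosen by name, among the 21936 genes of a normalized count table from mouse liver lymphatic endothelial cells. They comprise 18 enzymes of cholesterol synthesis, 5 genes of the SREBP system that sets how strongly those enzymes are transcribed, and 6 genes of sterol transport, storage and efflux; none of them is a lipoprotein uptake receptor. All 29 were found in the table, and all 29 averaged 10 or more normalized counts over the 9 libraries, the level required for testing, which 11809 genes reached. The cells were sorted from livers of IL7-GFP knock-in mice, a reporter strain in which GFP marks lymphatic endothelial cells and which every group carried, the sham group included. The groups were mice 2 weeks after bile duct ligation (BDL, n = 3), mice 4 weeks after bile duct ligation (n = 3) and sham-operated mice (n = 3). Tying off the common bile duct blocks the outflow of bile and leads to cholestasis and fibrosis. The sources used here do not give the sorting gate or the age and sex of the mice. Replicates are called libraries, and nothing beyond the statement of 3 mice per group says that they came from separate cultures or days, so p-values measure the spread between these libraries.

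Cholesterol is built from acetyl-CoA. The mevalonate arm of the pathway makes the isoprenoid unit and joins units into farnesyl diphosphate, and the sterol arm joins farnesyl units into squalene, closes the rings as lanosterol and trims lanosterol to cholesterol. When sterols in the endoplasmic reticulum are scarce, SCAP escorts SREBP2 (gene Srebf2) to the Golgi, where it is cleaved and freed to switch on genes of both arms; when sterols are plentiful, INSIG proteins hold SCAP back. In the opposite direction, oxysterols activate the nuclear receptors LXRα (Nr1h3) and LXRβ (Nr1h2), which switch on the efflux pumps ABCA1 and ABCG1. Bile acids are made from cholesterol in hepatocytes, so an obstructed bile duct also blocks a main route by which the liver disposes of sterol.

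The libraries held 592419 to 5314381 counted reads. The lowest total belonged to sham replicate 2, where 1 read was worth 5.26 normalized counts, against 0.589 to 1.23 in the others, and whose log2 values correlated least with the rest (median r 0.774, against 0.888 to 0.928). The summed level of 6 lymphatic markers (Prox1, Lyve1, Flt4, Pdpn, Mmrn1, Reln) was 13682 to 42429 normalized counts at 2 weeks, 23662 to 42941 at 4 weeks and 5194 to 35924 in sham, lowest in sham replicate 2, and none of the 6 was at 0 in any library. Markers of other cell types were also detected in every group. Summed over 8 markers, macrophage and Kupffer cell RNA was 17949 to 45164 at 2 weeks, 5995 to 14652 at 4 weeks and 18651 to 50538 in sham. Summed over 6 markers, hepatocyte RNA was 2862 to 8089.5 at 2 weeks, 1029.9 to 16739 at 4 weeks and 917 to 12023 in sham. Blood and sinusoidal endothelial markers (6 genes) summed to 5722 to 8261 at 2 weeks, 3779.6 to 7687 at 4 weeks and 5814.5 to 13344 in sham. Of these 6, Pecam1, Cdh5 and Kdr are expressed by endothelium in general, so this sum does not by itself show another cell type. Averaged over the 9 libraries, they had 1384, 2956 and 1792 normalized counts, Stab2 1551, Clec4g 30.9 and Oit3 24.1. Cholangiocyte markers (5 genes) summed to 608 to 1334 at 2 weeks, 608 to 2323 at 4 weeks and 1498 to 2566 in sham. Stellate cell and fibroblast markers (6 genes) summed to 995 to 3551 at 2 weeks, 763 to 2761 at 4 weeks and 129 to 789 in sham. Of all these markers, limma called 2 in any comparison, the Kupffer cell genes Clec4f and Timd4, lower at 4 weeks than in sham, and edgeR called the same 2. DESeq2 called more: at 2 weeks Marco, S100a8, Col1a2 and Col3a1 higher than in sham, at 4 weeks 4 macrophage markers, Stab2 and Sox9 lower and Col1a1, Col1a2 and Col3a1 higher, and between 4 and 2 weeks 4 macrophage markers lower. The 4 neutrophil and monocyte markers summed to 295 or less, and each was at 0 in at least 2 libraries.

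To show where the motifs of these regulators lie, 5 promoters are printed, chosen after the values were seen: enzymes of the mevalonate arm (Hmgcs1, Idi1), their regulator Srebf2, and the pair of genes that stand for the efflux side below (Nr1h3, Abca1). Each is the 250 bases before a RefSeq start site, 5′ to 3′ on the gene's strand, in lower case with CCAAT boxes (CCAAT, or ATTGG on the other strand) and the sterol regulatory element searched for in capitals; Nr1h3 has 2 RefSeq windows, of which the first is shown.
Hmgcs1 (GRCm38.p6 chr13:119690101-119690350, plus strand): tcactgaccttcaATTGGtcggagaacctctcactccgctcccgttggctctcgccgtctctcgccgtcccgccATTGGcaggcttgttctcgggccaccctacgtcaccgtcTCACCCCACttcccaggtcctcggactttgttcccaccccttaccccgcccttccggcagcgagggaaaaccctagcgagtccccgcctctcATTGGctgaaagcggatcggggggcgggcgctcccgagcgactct
Idi1 (GRCm38.p6 chr13:8885356-8885605, plus strand): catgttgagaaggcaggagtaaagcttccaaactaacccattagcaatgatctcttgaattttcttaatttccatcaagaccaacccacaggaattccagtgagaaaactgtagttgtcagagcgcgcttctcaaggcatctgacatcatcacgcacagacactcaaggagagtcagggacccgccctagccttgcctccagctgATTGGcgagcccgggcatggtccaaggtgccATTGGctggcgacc
Srebf2 (GRCm38.p6 chr15:82147019-82147268, plus strand): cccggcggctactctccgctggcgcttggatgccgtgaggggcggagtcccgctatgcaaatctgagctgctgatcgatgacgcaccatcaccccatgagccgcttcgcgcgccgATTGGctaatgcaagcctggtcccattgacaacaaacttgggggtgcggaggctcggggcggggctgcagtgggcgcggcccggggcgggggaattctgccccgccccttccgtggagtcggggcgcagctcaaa
Nr1h3 (GRCm38.p6 chr2:91195117-91195366, minus strand): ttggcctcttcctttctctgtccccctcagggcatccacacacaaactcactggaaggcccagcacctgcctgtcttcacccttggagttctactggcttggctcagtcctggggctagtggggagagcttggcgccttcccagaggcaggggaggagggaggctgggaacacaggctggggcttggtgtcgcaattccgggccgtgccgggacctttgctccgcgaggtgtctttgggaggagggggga
Abca1 (GRCm38.p6 chr4:53159896-53160145, minus strand): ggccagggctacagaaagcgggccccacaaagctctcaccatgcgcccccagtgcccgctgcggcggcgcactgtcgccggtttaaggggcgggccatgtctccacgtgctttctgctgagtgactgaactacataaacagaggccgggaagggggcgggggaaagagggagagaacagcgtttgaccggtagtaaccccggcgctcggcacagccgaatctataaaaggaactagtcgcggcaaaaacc
CCAAT boxes bind NF-Y, the factor that assists SREBP at sterol genes. The stretch shown holds 3 of them in Hmgcs1, 2 in Idi1, 1 in Srebf2 and 0 in Nr1h3 and Abca1. Searched on both strands over RefSeq windows from 250 bases before to 50 after the start, CCAAT was found for 14 of the 15 synthesis enzymes with a window (93.3%), for 4 of 5 SREBP genes (80%) and for 1 of 4 transport genes (25%), against 41.1% of all 27025 genes. By window rather than by gene it was in 77.8% of the 18 windows of the enzymes and in 37.4% of all 32851 windows. The sterol regulatory element, a sequence SREBP itself binds, was searched for only as the exact letters TCACNCCAC. This form was in 1.24% of all windows and in 1 of the members' 33, that of Hmgcs1, where it reads TCACCCCAC. For LXR only a perfect direct repeat of AGGTCA with 4 bases between the copies was searched for. That form was in 0.0152% of all windows and in none of the members'. Elements that differ from it by a base or more were not counted, so whether these promoters hold an LXR element was not tested. A match is a description of the letters, and no match says only that these letters are not in that window. RefSeq windows were matched for 24 of the 29 genes.

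Per kilobase of exon, the efflux pumps and their receptors had higher levels than any synthesis enzyme. Averaged over the 9 libraries, Abca1 had 659 normalized counts per kilobase and Nr1h3 203, followed by Insig1 with 107, Abcg1 with 105, Nr1h2 with 83.9 and Soat1 with 74.3. The highest of the 18 enzymes were Pmvk with 49.9 and Hmgcs1 with 49.0, and the lowest of all 29 were Lss with 4.10 and Fdps with 3.03. In reads, the enzymes lay between 4 and 293 per library at 2 weeks, 5 and 466 at 4 weeks and 0 and 448 in sham, with a median of 10 in sham replicate 2, so most of the synthesis genes were counted at low depth there. Some counts can mix with those of other genes: of 50-base stretches in its transcripts, Acat2 shared 39.1% with its paralog Acat3, Fdft1 17.2% with the overlapping Ctsb, Fdps 23.4% with the overlapping Gm43738, Idi1 17.7% with Gm13502, Hmgcs1 10% with Gm48342, Scap 9.96% with 5830462I19Rik and Tm7sf2 9.87% with the overlapping Vps51. Mvd lies wholly within the opposite-strand model Gm20388, and the sources used here do not say whether counting used strand, so values of these 8 genes are uncertain. Cyp51 and Srebf1 overlap Akap9 and Rai1 on the opposite strand over 166 and 109 bases.

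**Figure D1:**
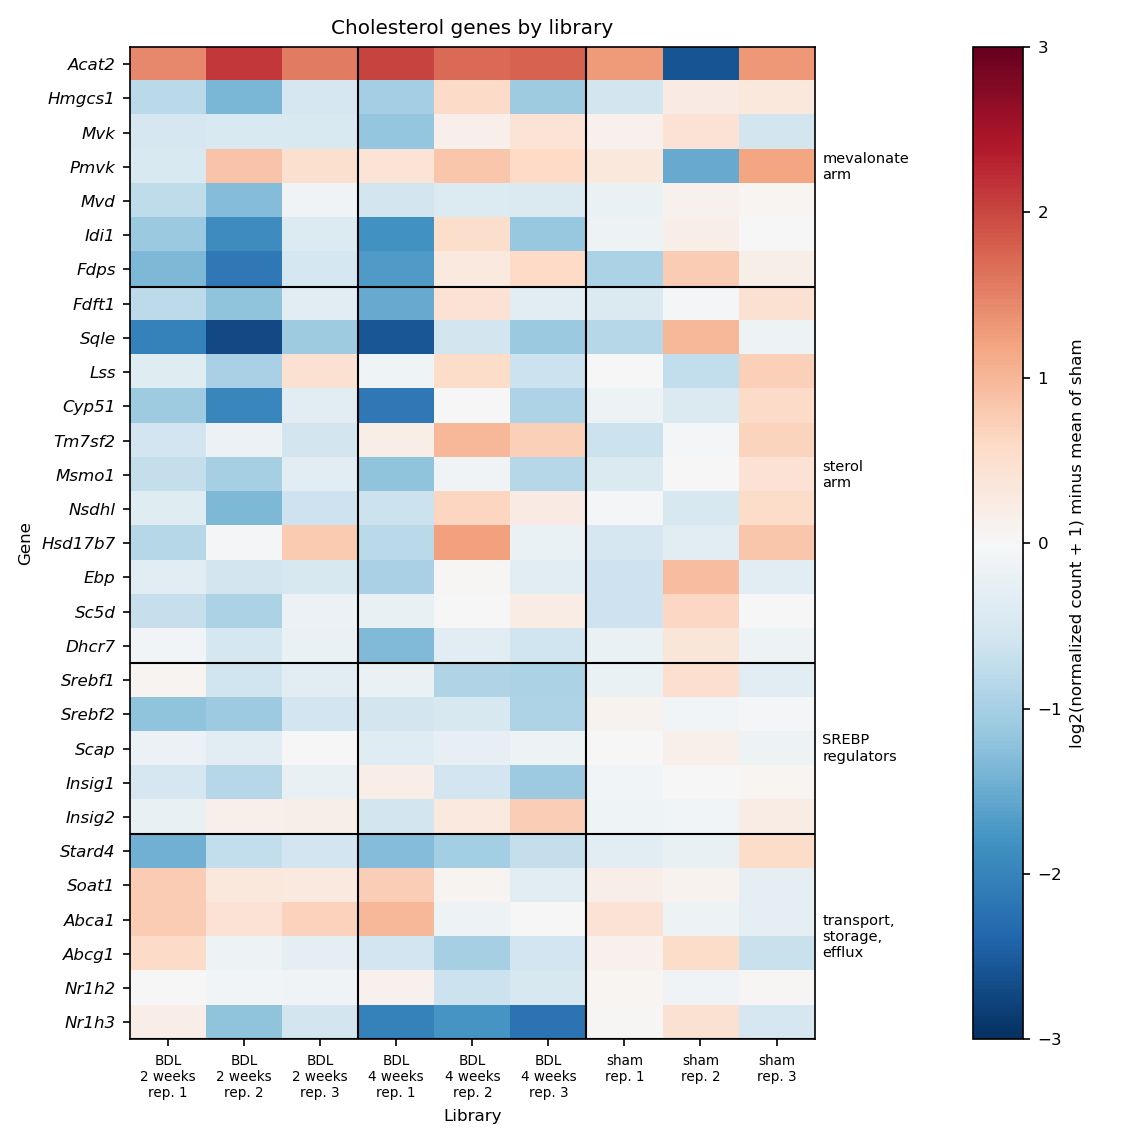
Level of each of the 29 genes (rows, by role) in each of the 9 libraries (columns), as log2(normalized count + 1) minus the mean of the 3 sham libraries; blue is lower and red higher. Blue fills most of the enzyme rows in the 2-week libraries and in BDL 4 weeks replicate 1, Nr1h3 is darkest in the 3 libraries of 4 weeks, and the Acat2 row is shifted by 0 reads in sham replicate 2.

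At 2 weeks after ligation, most synthesis enzymes had lower point estimates than in sham, but none of the 29 genes passed the test. Sqle had the lowest estimate and Srebf2 the lowest p. Of the 29 log2 fold changes 23 were below 0, with a median of −0.47, whereas 44.4% of all 11809 tested genes were below 0 and their median was 0.07. No member had a limma adjusted p below 0.05 (Benjamini-Hochberg over all tested genes), nor did edgeR call any; 3 had an unadjusted p under 0.05, all lower (Sqle, Srebf2 and Stard4), and DESeq2 called 1, Srebf2, lower, against 1.03% of all genes lower with that tool. For background, limma called 2 of the 11809 genes (0.0169%) in this comparison, and 4.2% of all genes were lower and 4.35% higher at an unadjusted p under 0.05. The 3 libraries of 2 weeks lay entirely below the 3 of sham for 5 members (Idi1, Sqle, Srebf2, Insig1, Stard4) and entirely above for 3 (Acat2, Soat1, Abca1), against 7.71% of all genes below and 10.2% above. For Acat2 the 0 reads in sham replicate 2 allow up to 15.8 normalized counts, above the 15.3 of BDL 2 weeks replicate 1. That separation was therefore not detectable at this depth.

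At 4 weeks after ligation, 1 of the 29 genes passed: Nr1h3, which was lower. Of the 29 estimates 21 were below 0, with a median of −0.42, against 44.8% below 0 and a median of 0.07 over all tested genes. Limma called 142 of the 11809 genes (1.2%), 79 of them lower (0.669%), and edgeR and DESeq2 each also called Nr1h3 and no other member, against 0.779% of all genes lower with edgeR and 3% with DESeq2. At an unadjusted p under 0.05, 3 members were lower (Srebf2, Stard4, Nr1h3) and none higher, against 7.3% of all genes lower and 6.43% higher. Groups did not overlap for 6 members that were lower (Mvd, Dhcr7, Srebf2, Scap, Stard4, Nr1h3) and for 1 that was higher (Acat2), against 8.39% and 8.6% of all genes. Both ligation comparisons use the same 3 sham libraries, so their values for a gene are given side by side and are not independent of each other.

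**Figure D2:**
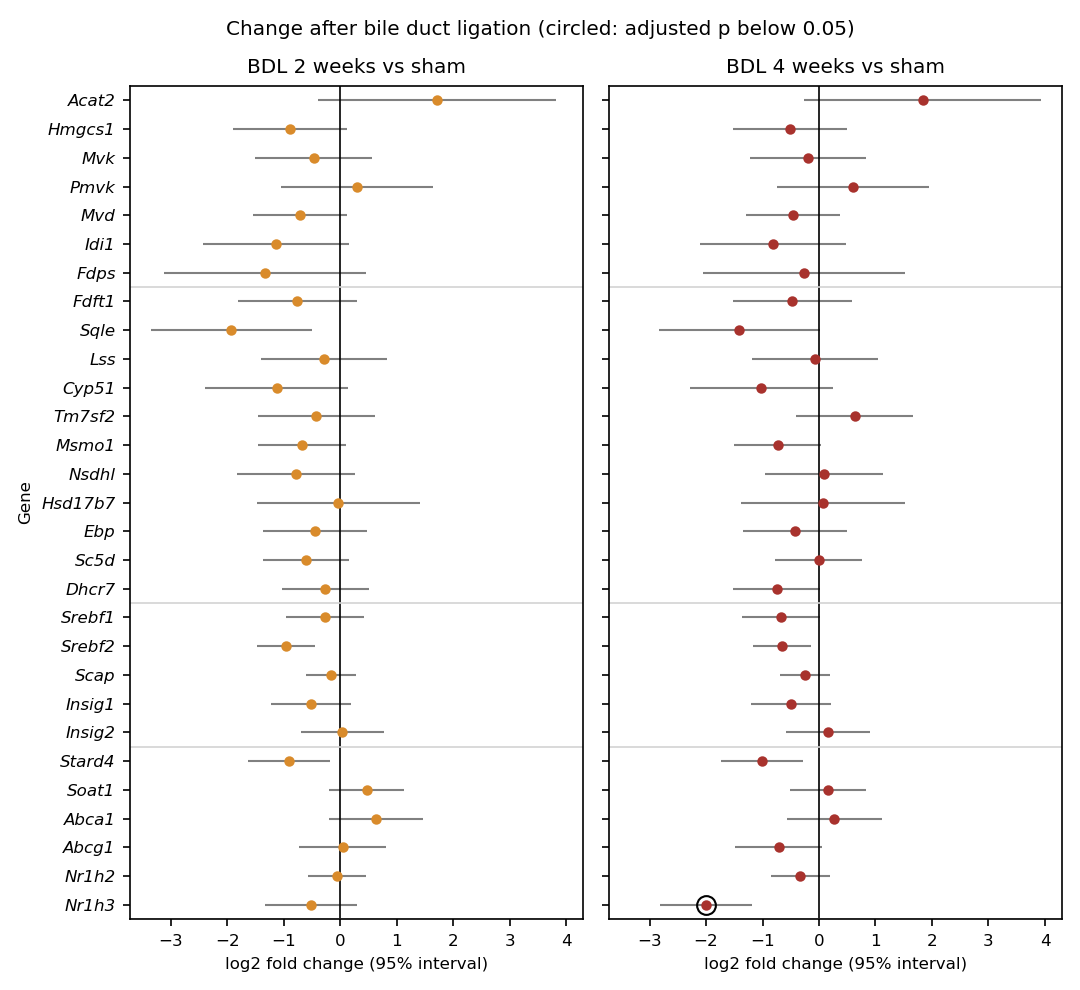
Log2 fold change of each gene with its 95% interval (x axis, limma on log2(normalized count + 1), n = 3 libraries per group) for 2 weeks against sham on the left and 4 weeks against sham on the right; grey lines part the roles and a black ring marks an adjusted p below 0.05. All 11 genes of the sterol arm lie left of 0 at 2 weeks, 8 of them do at 4 weeks, and Nr1h3 at 4 weeks is the one ringed point.

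The 7 mevalonate enzymes had a median log2 fold change of −0.72 at 2 weeks and −0.26 at 4 weeks, with 5 of 7 below 0 in each and none passing. Hmgcs1, the HMG-CoA synthase, had 160.3, 108 and 198 normalized counts at 2 weeks, 137, 417 and 133 at 4 weeks, and 193, 331 and 349 in sham. Only the highest 2-week library overlapped the lowest sham library, while BDL 4 weeks replicate 2 exceeded every other library of the study. Its means were 156 ± 45.1 at 2 weeks, 229 ± 163 at 4 weeks and 291 ± 85.6 in sham (SD, n = 3 each), and without BDL 4 weeks replicate 2 the 4-week mean was 135. The log2 fold change was −0.89 ± 0.45 (SE) at 2 weeks (limma, adjusted p = 0.604) and −0.51 ± 0.45 at 4 weeks (limma, adjusted p = 0.657).

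Idi1, the isomerase that makes the reactive isoprenoid unit, had 27.7, 15.7 and 45.4 normalized counts at 2 weeks, 16.5, 87.7 and 27.1 at 4 weeks, and 55.0, 68.3 and 60.0 in sham. All 2-week libraries were below all sham libraries, and at 4 weeks replicate 2 was above sham and the other 2 below it. Without replicate 2 the 4-week mean of Idi1 was 21.8 normalized counts, against 43.8 with it. Its log2 fold change was −1.14 ± 0.58 at 2 weeks and −0.81 ± 0.58 at 4 weeks (SE; limma, adjusted p = 0.604 and 0.576). Fdps, which joins the isoprenoid units, was counted at only 2.61 to 10.2 normalized counts at 2 weeks, 3.92 to 23.4 at 4 weeks and 7.34 to 26.3 in sham, and its groups overlapped.

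Of the other mevalonate enzymes, the kinase gene Mvk had 21.8 to 22.3 normalized counts at 2 weeks, 13.3 to 41.8 at 4 weeks and 21.0 to 42.1 in sham. The decarboxylase gene Mvd had 13.1 to 31.1 at 2 weeks, 22.8 to 25.1 at 4 weeks and 29.3 to 36.8 in sham, with all 4-week libraries below all sham libraries. The second kinase gene, Pmvk, and the thiolase gene Acat2, which makes acetoacetyl-CoA, had estimates above 0 in both comparisons. For Acat2, the libraries gave 15.3, 25.5 and 16.9 normalized counts at 2 weeks, 23.5, 18.8 and 19.7 at 4 weeks, and 13.8, 0 and 14.0 in sham. The 0 came from sham replicate 2, where the 3 reads that a count of 0 allows would be 15.8 normalized counts, a value that BDL 2 weeks replicate 1 did not reach. A separation of the 2-week libraries from sham was therefore not detectable at this depth, while the 3 libraries of 4 weeks all lay above 15.8. The Acat2 log2 fold change at 2 weeks was 1.71 with limma, 0.74 with edgeR and 0.70 with DESeq2. Pmvk had 44.8 to 112 normalized counts at 2 weeks, 82.4 to 110.1 at 4 weeks and 21.0 to 143 in sham. Its sham mean of 80.2 was 49.0 without replicate 3 and 109.8 without replicate 2, the shallow library. Without sham replicate 2 the log2 fold change of Pmvk was below 0, at −0.46 at 2 weeks and −0.15 at 4 weeks.

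The sterol arm had a median log2 fold change of −0.60 at 2 weeks, with 11 of 11 below 0. At 4 weeks the median was −0.42, with 8 of 11 below 0. None of the 11 passed in either comparison. Over the 18 enzymes of both arms, 13 estimates were below 0 at 4 weeks against sham. That count was 7 with library quality weights and 9 without BDL 4 weeks replicate 1. Sqle, the squalene epoxidase and a rate-limiting step of the arm, had 27.1, 16.3 and 53.5 normalized counts at 2 weeks, 18.1, 77.0 and 51.7 at 4 weeks, and 62.4, 226 and 101 in sham. Every 2-week library was below every sham library, and at 4 weeks replicate 2 reached into the range of sham. Its log2 fold change was −1.93 ± 0.64 at 2 weeks (SE, 95% interval −3.36 to −0.50; limma, adjusted p = 0.438). At 4 weeks it was −1.41 ± 0.64 (95% interval −2.84 to 0.02; limma, adjusted p = 0.371). The sham mean of 129.9 ± 85.5 (SD, n = 3) rests on replicate 2, the shallow library, and was 81.8 without it.

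Cyp51, the lanosterol demethylase, had 56.6, 30.1 and 95.4 normalized counts at 2 weeks, 26.7, 120.0 and 62.8 at 4 weeks, and 109, 89.4 and 179 in sham. The lowest sham library fell within the range of both ligation groups, with BDL 2 weeks replicate 3 and BDL 4 weeks replicate 2 above it. Its log2 fold changes were −1.13 ± 0.57 at 2 weeks and −1.02 ± 0.57 at 4 weeks (SE; limma, adjusted p = 0.604 and 0.47). Msmo1, the methylsterol oxidase that acts after it, had 65.3 to 103 normalized counts at 2 weeks, 55.7 to 121 at 4 weeks and 96.3 to 177 in sham, with log2 fold changes of −0.68 and −0.73. Fdft1, the squalene synthase at the head of the arm, had 45.7 to 86.6 normalized counts at 2 weeks, 36.9 to 145 at 4 weeks and 79.8 to 147 in sham.

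Dhcr7, the last reductase of the pathway, was the sterol gene whose groups separated at 4 weeks. It had 46.0, 33.3 and 42.6 normalized counts at 2 weeks, 18.8, 38.5 and 32.0 at 4 weeks, and 42.2, 63.1 and 43.6 in sham. All 4-week libraries lay below all sham libraries, and the 2-week libraries overlapped sham; the 4-week log2 fold change was −0.75 ± 0.34 (SE; limma, adjusted p = 0.377). The other 7 sterol genes overlapped between ligation and sham in both comparisons: Lss (lanosterol synthase), Tm7sf2 (a sterol reductase), Nsdhl and Hsd17b7 (which take off methyl groups and reduce the ketone left), Ebp (a sterol isomerase), Sc5d (a sterol desaturase) and Fdft1. Their log2 fold changes lay between −0.78 for Nsdhl and −0.04 for Hsd17b7 at 2 weeks, and between −0.47 for Fdft1 and 0.63 for Tm7sf2 at 4 weeks.

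**Figure D3:**
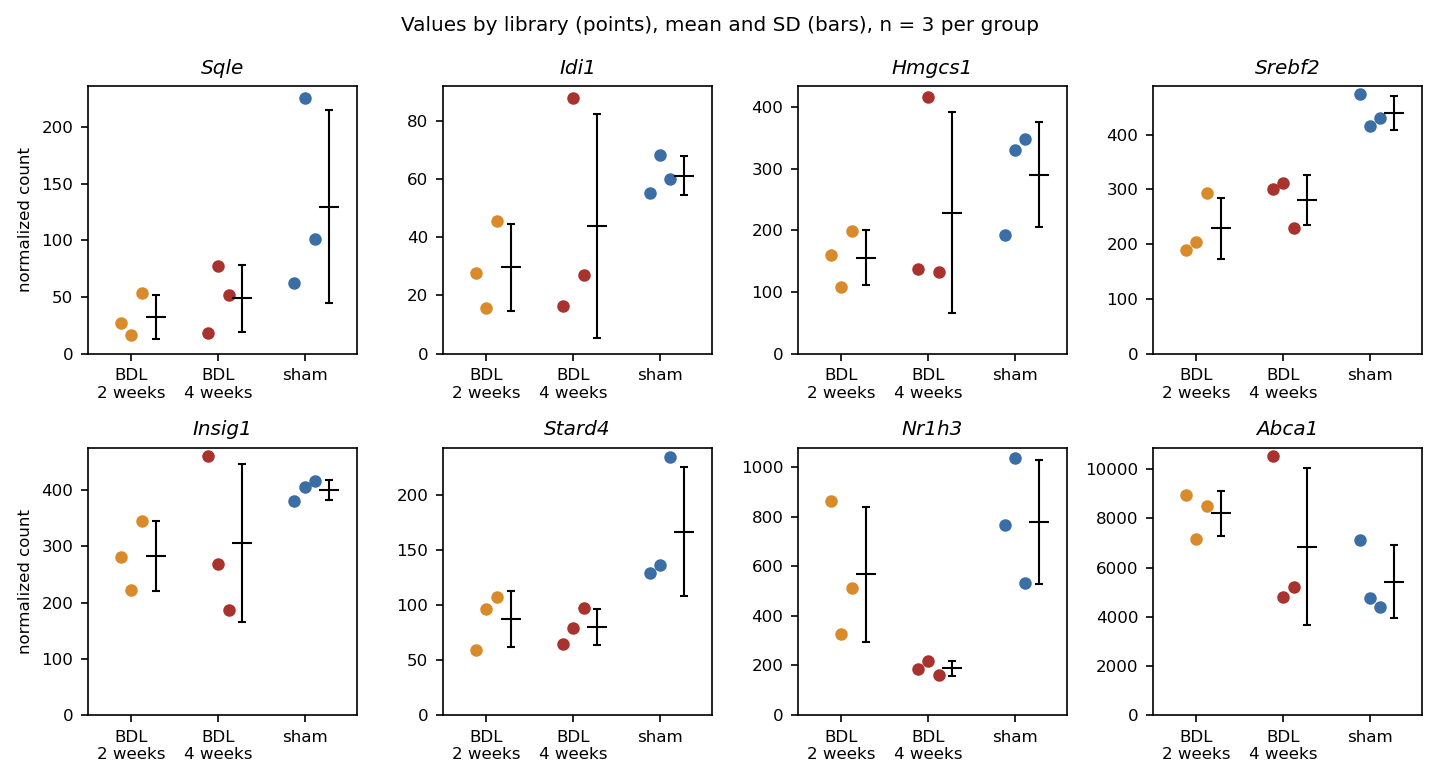
Normalized counts (y axis, from 0) of 8 genes in each library (points) of the groups of 2 weeks, 4 weeks and sham, with the mean and SD as black bars (n = 3 each). Srebf2 and Stard4 lie below sham in all 6 ligation libraries, Nr1h3 is low in the 3 libraries of 4 weeks (161 to 218), and for Hmgcs1 and Idi1 1 library of 4 weeks stands above the other 2.

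Within a group, most enzymes ranked the libraries alike. BDL 4 weeks replicate 2 was the highest of its group for 14 of the 18 enzymes and replicate 1 the lowest for 15. At 2 weeks, replicate 3 was the highest for 12 and replicate 2 the lowest for 13. In sham, replicate 1 was the lowest for 12 and the highest for none. Summed over the 18 enzymes, the level was 771, 664 and 1065 normalized counts at 2 weeks, 674, 1590.2 and 956 at 4 weeks, and 1013, 1529.8 and 1635 in sham. The ligation groups overlap sham in this sum through BDL 2 weeks replicate 3 and BDL 4 weeks replicate 2. The summed hepatocyte markers were 6806, 2862 and 8089.5 normalized counts in the 3 libraries of 2 weeks, 1029.9, 16739 and 11090 at 4 weeks, and 917, 12023 and 6540 in sham. Within each ligation group the hepatocyte sum and the enzyme sum put the 3 libraries in the same order, and in sham both were lowest in replicate 1. Hepatocytes are a main site of cholesterol synthesis, and the part of their RNA in these enzyme values was not tested. The summed cholangiocyte markers were 1334, 608 and 1041 normalized counts in the 3 libraries of 2 weeks, 608, 2323 and 1654 at 4 weeks, and 1498, 2566 and 2028 in sham. All 2-week libraries lay below all sham libraries in this sum, as 4-week replicate 1 did. Its order of the libraries was that of the enzyme sum at 4 weeks but not at 2 weeks or in sham. The cholangiocyte sum was highest in replicate 1 at 2 weeks and in replicate 2 in sham, and the enzyme sum in replicate 3 in both. The part of cholangiocyte RNA in the enzyme values was not tested. Fewer cells of a type and less RNA per cell cannot be told apart in bulk samples such as these.

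**Figure D4:**
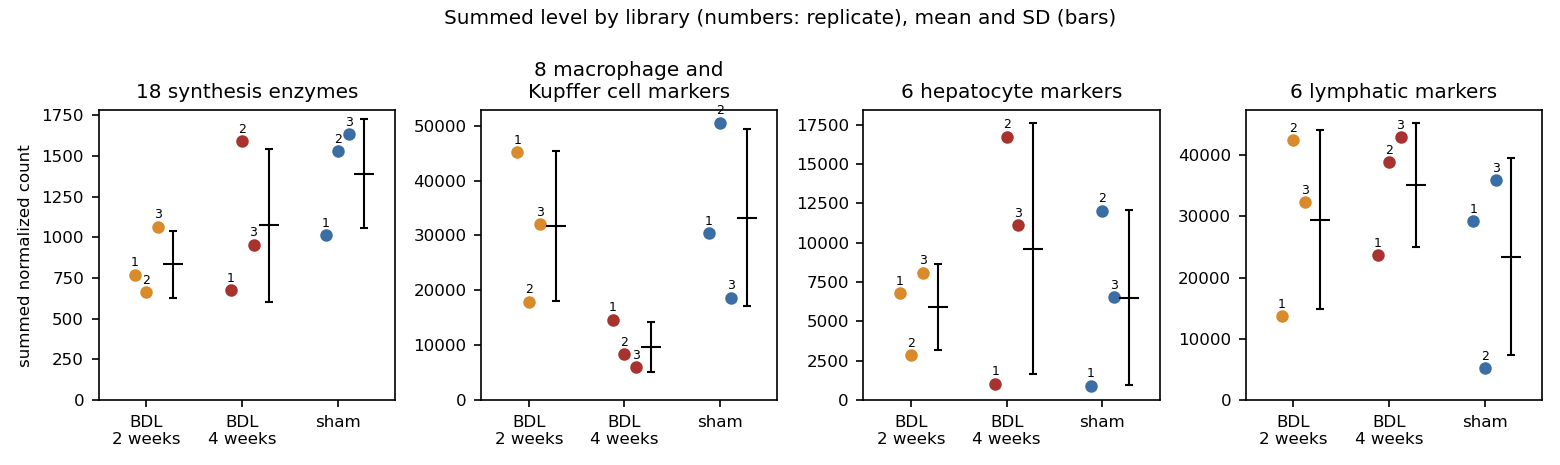
Summed normalized counts (y axes, from 0) of the 18 enzymes and of the marker lists for macrophages and Kupffer cells, hepatocytes and lymphatic endothelium in each library (points, numbered by replicate), with group means and SDs as black bars (n = 3 each). Enzymes and hepatocyte markers rank the libraries alike at 2 weeks and at 4 weeks, and the macrophage sum is below all other libraries in the 3 libraries of 4 weeks (5995 to 14652).

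Among the SREBP genes, Srebf2 was lower in all 6 ligation libraries than in any sham library. It had 189, 204 and 293 normalized counts at 2 weeks, 301, 312 and 229 at 4 weeks, and 474, 415 and 429.9 in sham. Means were 229 ± 56.1 at 2 weeks, 281 ± 45.4 at 4 weeks and 439.8 ± 30.6 in sham (SD, n = 3 each). The log2 fold change was −0.96 ± 0.23 at 2 weeks (SE, 95% interval −1.48 to −0.45) with a limma adjusted p of 0.265. At 4 weeks it was −0.66 ± 0.23 (95% interval −1.17 to −0.14; limma, adjusted p = 0.246). It therefore did not pass in either comparison; DESeq2 gave an adjusted p of 0.0156 at 2 weeks, edgeR one of 0.225, and in limma with each library left out in turn the adjusted p stayed between 0.155 and 0.799.

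Insig1, which retains SCAP in the endoplasmic reticulum and is itself switched on by SREBP, had 281, 221 and 345 normalized counts at 2 weeks, 461, 269 and 187 at 4 weeks, and 381, 405 and 416 in sham. All 2-week libraries were below sham, while the 4-week libraries lay on both sides of it. Its log2 fold changes were −0.53 ± 0.32 at 2 weeks and −0.49 ± 0.32 at 4 weeks (SE; limma, adjusted p = 0.648 and 0.541). Scap, the escort, had 148 to 183 normalized counts at 2 weeks, 144 to 165 at 4 weeks and 167 to 205 in sham; all 4-week libraries were below sham by a small margin, with a log2 fold change of −0.25 ± 0.20 (SE). Srebf1, whose product chiefly drives fatty acid synthesis, had 216 to 345 at 2 weeks, 169 to 283 at 4 weeks and 260.1 to 463 in sham, with log2 fold changes of −0.27 and −0.68 (limma, adjusted p = 0.815 and 0.372). Insig2, the second INSIG gene, had 61.3 to 81.2 normalized counts at 2 weeks, 48.7 to 121 at 4 weeks and 65.1 to 83.3 in sham.

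Stard4, a soluble carrier that moves sterol between membranes and is itself an SREBP target, was likewise below sham in every ligation library. It had 58.9, 96.0 and 108 normalized counts at 2 weeks, 64.4, 78.8 and 97.2 at 4 weeks, and 129, 137 and 234 in sham. The 2-week and 4-week libraries overlapped each other, and none reached the lowest sham library. The log2 fold change was −0.91 ± 0.33 at 2 weeks (SE; limma, adjusted p = 0.484) and −1.01 ± 0.33 at 4 weeks (limma, adjusted p = 0.2), so it passed in neither.

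Nr1h3, which encodes LXRα, fell at 4 weeks. It had 862, 327 and 512 normalized counts at 2 weeks, 184, 218 and 161 at 4 weeks, and 768, 1036 and 533 in sham. The 4-week libraries lay below all 6 others, while 2 weeks and sham overlapped. Means were 567 ± 272 at 2 weeks, 188 ± 28.9 at 4 weeks and 779 ± 252 in sham (SD, n = 3 each). At 4 weeks its level was 0.249 times that of sham, a log2 fold change of −2.01 ± 0.36 (SE, 95% interval −2.82 to −1.19; limma, adjusted p = 0.0335; edgeR adjusted p = 0.0364). At 2 weeks it was −0.52 ± 0.36 (limma, adjusted p = 0.699). The call depended on which libraries were kept. Without BDL 2 weeks replicate 3, or without sham replicate 1 or 2, the limma adjusted p was above 0.05. It was also above 0.05 without any 1 of the 3 libraries of 4 weeks, and these values were 0.0579 to 0.142. The call stayed without BDL 2 weeks replicate 1 (limma, adjusted p = 0.0271), BDL 2 weeks replicate 2 (0.0286) or sham replicate 3 (0.0455). The log2 fold change stayed between −2.25 and −1.77.

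Nr1h3 is also a nuclear receptor that Kupffer cells depend on. In the same libraries, 4 of 8 macrophage and Kupffer cell markers lay wholly below sham, against 8.39% of all genes. The sum of the 8 macrophage and Kupffer cell markers was 17949 to 45164 normalized counts at 2 weeks, 5995 to 14652 at 4 weeks and 18651 to 50538 in sham, again with all 4-week libraries below the others. Of the 8 markers 2 passed at 4 weeks, both lower: Clec4f, with a log2 fold change of −3.30 ± 0.56 (SE; limma, adjusted p = 0.0268), and Timd4, with −4.03 ± 0.53 (limma, adjusted p = 0.0105); none of the 8 was at 0 in any library. All 8 estimates were below 0, but that of the macrophage marker Cd68 was only −0.09. Cd68 had 1751, 1227 and 1089 normalized counts at 4 weeks and 1367, 2408 and 860 in sham. The part of macrophage and Kupffer cell RNA in the value of Nr1h3 was not tested.

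The receptor's targets that pump sterol out did not pass in any comparison. Abca1, which loads cholesterol onto apolipoprotein A-I, had 8947, 7156 and 8499.7 normalized counts at 2 weeks, 10539.7, 4788 and 5219.6 at 4 weeks, and 7124, 4747 and 4403 in sham. The 2-week libraries were above all sham libraries, the nearest pair by a small margin, and at 4 weeks replicate 1 stood above the rest. Its log2 fold changes were 0.62 ± 0.37 at 2 weeks and 0.27 ± 0.37 at 4 weeks (SE; limma, adjusted p = 0.642 and 0.781). Abcg1, which passes cholesterol to HDL particles, had 1248, 753 and 682 normalized counts at 2 weeks, 563, 418 and 567 at 4 weeks, and 914, 1225 and 527 in sham. All 4-week libraries of Abcg1 were below all 2-week libraries, and sham overlapped both, with log2 fold changes against sham of 0.04 ± 0.35 at 2 weeks and −0.71 ± 0.35 at 4 weeks (SE; limma, adjusted p = 0.977 and 0.4). The summed macrophage and Kupffer cell markers were also lower in every 4-week library (5995 to 14652) than in every 2-week library (17949 to 45164). Of the 8 markers 7 had estimates below 0 between 4 and 2 weeks. The other, Cd68, had 1587, 1004 and 936 normalized counts at 2 weeks and 1751, 1227 and 1089 at 4 weeks. The part of macrophage RNA in the values of Abcg1 and Abca1 was not tested.

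Soat1, which esterifies cholesterol for storage in lipid droplets, had 1042, 763 and 751 normalized counts at 2 weeks, 1017, 646 and 479 at 4 weeks, and 693, 657 and 498 in sham. The 2-week libraries were above sham and the 4-week libraries spanned it, with log2 fold changes of 0.47 ± 0.30 and 0.16 ± 0.30 (SE; limma, adjusted p = 0.671 and 0.854). Nr1h2, which encodes LXRβ and has a named pseudogene, had 283 to 305 normalized counts at 2 weeks, 193 to 334 at 4 weeks and 284 to 318 in sham, with log2 fold changes of −0.06 ± 0.23 and −0.33 ± 0.23 (SE). The fall of Nr1h3 at 4 weeks was not set against the value of Nr1h2 by a test of the difference.

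Between 4 and 2 weeks of ligation, none of the 29 genes passed with limma or edgeR, and limma and edgeR called 0 of all 11809 genes; 4.02% of all genes had an unadjusted limma p under 0.05 (0.982% higher, 3.04% lower), and DESeq2 called 78 genes (0.661%). Of the 18 enzymes 16 had estimates above 0, with a median of 0.29, against 52.2% of all genes; without BDL 4 weeks replicate 2 it was 9 of 18. All 6 transport genes had estimates below 0, with a median of −0.33, against 47.8% of all genes. Nr1h3 had the lowest p among the members, with a log2 fold change of −1.49 ± 0.36 (SE; limma, adjusted p = 0.521), and it was the member that DESeq2 called, lower, against 0.508% of all genes lower with that tool. Tm7sf2 had 18.8, 33.1 and 27.1 normalized counts at 4 weeks, against 10.6, 14.4 and 10.8 at 2 weeks. The groups did not overlap for Tm7sf2, whose log2 fold change was 1.06 ± 0.47 (SE; limma, adjusted p = 1), nor for Abcg1 and Nr1h3, against 4.34% of all genes higher and 5.06% lower without overlap.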

How the data were processed

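RNA was measured in 9 libraries of sorted liver lymphatic endothelial cells, made after depletion of ribosomal RNA per the labels' protocols. The authors deposited 1 table of a normalized signal, gene counts divided by a size factor per library; the build was mm10 and the tools named were HISAT2 2.1.0, Trim Galore 0.5.0, DESeq2 1.22.1 and StringTie 1.3.3b, per the submitters' processing notes, and the sources used here do not give their order, settings or annotation release. Dividing each column by its smallest step gave whole reads for 100% of 197424 values within 0.001. Since the reads carry no molecular identifiers, floors cover only counting error. A count of 0 allows 3 reads, or 15.8 normalized counts in sham replicate 2 and 1.77 to 3.69 in the others.

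The main test, two-sided, was limma 3.58.1 (R 4.3.3) with trended moderation, fitting 3 group means to log2(normalized count + 1) of all 9 libraries, which leaves 6 residual degrees of freedom. P-values were adjusted by Benjamini-Hochberg across the 11809 genes averaging 10 or more; 10127 genes lay below. A gene passed at an adjusted p below 0.05. The pseudocount usually understates the change of low genes, but few or 0 reads in 1 library can widen it, as for Acat2 at 2 weeks. Differences were not rescaled to the median gene, which was 0.07, 0.07 and 0.02 on the log2 scale in the comparisons of 2 weeks with sham, 4 weeks with sham and 4 with 2 weeks. Replicate libraries of a group differed beyond sampling noise in every pair (chi-square per degree of freedom 6.68 to 45.9).

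All members may be named; values per library were given for those of each role with the lowest p or the highest level, and of each other pathway list up to 4 genes with the lowest p. The members, roles, lists and motifs were chosen with earlier results of these data known. Coordinates, exon lengths and shared 50-base stretches came from GENCODE M21 (GRCm38, the assembly of mm10) and promoters from RefSeq. Alternatives were other pseudocounts (0.5, 5), filters (none, 50), quantile and TMM scaling, DESeq2 1.42.0 and the quasi-likelihood test of edgeR 4.0.16 on recovered counts, a block for the replicate number, library quality weights, and leaving out each library.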

Additional observations from a re-analysis of the deposited data

How the results depend on the processing

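The fall of Nr1h3 at 4 weeks kept its direction under every alternative and stayed called with both other pseudocounts, both other filters, quantile or TMM scaling, edgeR, DESeq2 and library quality weights. It was not called with the replicate block (log2 fold change −2.01, adjusted p = 0.0694) or in 6 of the 9 fits that left out a library. The replicate numbers gave no sign of pairing, since deviations of same-numbered libraries correlated between −0.445 and 0.228, and with the block the number of genes called at 4 weeks was 84 and the members called were 0. Genes called at 2 weeks were 211 with DESeq2, 1112 with weights and 0 to 14 with 1 library left out (0 without BDL 2 weeks replicate 2 or 3, 14 without BDL 4 weeks replicate 1, 10 without sham replicate 2); members called were 1 with DESeq2 and 1 with weights, Srebf2 in both. At 4 weeks the genes called were 217 with quantile scaling, 573 with DESeq2, 1608 with weights and 9 to 173 with 1 library left out (9 without BDL 4 weeks replicate 3, 38 without BDL 4 weeks replicate 2, 74 without BDL 2 weeks replicate 3, 70 and 68 without sham replicates 1 and 3). With weights the members called at 4 weeks were 4 (Srebf1, Srebf2, Nr1h2, Nr1h3), and with 1 library left out they were 0 to 1. For 4 against 2 weeks the genes called were 1 with a filter at 50, 78 with DESeq2, 349 with weights and 0 to 2 with 1 library left out, and the members called were 1 with DESeq2 and 1 with weights (Nr1h3). The members' median log2 fold change was −0.23 at 2 weeks and −0.19 at 4 weeks with weights; with 1 library left out it was −0.56 to −0.40 at 2 weeks, −0.55 to −0.20 at 4 weeks and −0.10 to 0.30 between 4 and 2 weeks, reaching −0.20 without BDL 4 weeks replicate 1 and −0.10 without BDL 4 weeks replicate 2. Of 1623 member values under alternatives, 78 changed sign, none of them a call. At 2 weeks these were Pmvk with edgeR (−0.13), DESeq2 (−0.07) and weights (−0.01), Abcg1 with edgeR (−0.01), DESeq2 (−0.01) and weights (−0.09), Hsd17b7 with quantile scaling (0.04) and weights (0.50), and Ebp with weights (0.04). At 4 weeks, all with weights, they were Hmgcs1 (0.08), Mvk (0.17), Fdps (1), Fdft1 (0.21), Ebp (0.31), Sc5d (0.55), Soat1 (−0.16) and Abca1 (−0.30). Between 4 and 2 weeks they were Acat2 with quantile scaling (−0.03), Msmo1 with edgeR (0.02), DESeq2 (0.01) and weights (0.07), and Insig1 with weights (−0.30). With 1 library left out, log2 fold changes that crossed 0 ranged at 2 weeks as follows: Abcg1 −0.30 to 0.31, Ebp −0.76 to 0.02, Hsd17b7 −0.44 to 0.38, Insig2 −0.03 to 0.17, Lss −0.67 to 0.07, Pmvk −0.46 to 0.89. At 4 weeks the ranges were Abca1 −0.08 to 0.49, Ebp −0.73 to 0.05, Fdft1 −0.92 to 0.05, Fdps −0.74 to 0.45, Hsd17b7 −0.51 to 0.51, Insig2 −0.13 to 0.52, Lss −0.44 to 0.29, Mvk −0.50 to 0.29, Nsdhl −0.19 to 0.45, Pmvk −0.15 to 1.21, Sc5d −0.32 to 0.30, Soat1 −0.13 to 0.41. Between 4 and 2 weeks they were Acat2 −0.01 to 0.34, Cyp51 −0.41 to 0.66, Ebp −0.20 to 0.30, Fdft1 −0.16 to 0.82, Hmgcs1 −0.16 to 0.66, Hsd17b7 −0.47 to 0.55, Idi1 −0.34 to 0.83, Insig1 −0.31 to 0.34, Insig2 −0.16 to 0.48, Lss −0.12 to 0.60, Msmo1 −0.36 to 0.19, Mvd −0.03 to 0.57, Mvk −0.03 to 0.76, Pmvk −0.05 to 0.60, Stard4 −0.36 to 0.07. The cause of these changes was not tested. Sham replicate 2 had 0 to 63 reads for each enzyme.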

Other observations

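Of 4 further lists of lipid genes, none had a member that passed the limma test in any comparison. DESeq2 called 1 fatty acid target of SREBP lower at 2 weeks than in sham. It also called 1 other LXR target lower at 4 weeks than in sham, and 1 lower at 4 than at 2 weeks. Over all genes it called 1.03%, 3% and 0.508% lower in these 3 comparisons. In the isoprenoid branch, which diverts mevalonate products to dolichol, ubiquinone and protein prenylation, all 8 genes had limma log2 fold changes above 0 against sham at both times, with medians of 0.28 at 2 weeks and 0.45 at 4 weeks, and 55.6% and 55.2% of all tested genes were at or above 0; both comparisons share the sham libraries. With the count models, Fntb was below 0 at 2 weeks (−0.24 with edgeR, −0.23 with DESeq2) and Pdss2 at 4 weeks (−0.03 with edgeR, −0.04 with DESeq2). The mean log2 level of the 8 genes was 5.36 in the shallow sham replicate 2, against 5.98 and 6.12 in sham replicates 1 and 3. It was 6.10 to 6.20 in the libraries of 2 weeks and 6.27 to 6.30 in those of 4 weeks. Sham replicate 2 held 1 read of Fntb, 2 of Pdss2 and 7 of Fnta, and its part in the signs of this list was not tested. Nus1, a subunit of the dolichol-making prenyltransferase, had 366, 398 and 423 normalized counts at 2 weeks, 962, 344 and 393 at 4 weeks, and 274, 336 and 204 in sham, with log2 fold changes of 0.57 and 0.93 (limma, adjusted p = 0.675 and 0.301). Every ligation library of Nus1 exceeded every sham library, the nearest pair by a small margin. That pair was 344 in BDL 4 weeks replicate 2 and 336 in sham replicate 2. The latter came from 64 reads, each worth 5.26 normalized counts. Among 13 fatty acid targets of SREBP the medians were −0.17 at 2 weeks and 0.04 at 4 weeks. The desaturase gene Fads2 had 28.3, 7.19 and 26.4 normalized counts at 2 weeks, 18.1, 56.4 and 41.8 at 4 weeks, and 47.7, 179 and 92.7 in sham (log2 fold change at 2 weeks −2.32, limma adjusted p = 0.336). The acetyl-CoA synthetase gene Acss2 had 36.5, 38.5 and 32.5 normalized counts at 2 weeks, 21.2, 45.7 and 50.4 at 4 weeks, and 59.6, 189 and 74.8 in sham, with all ligation libraries of Acss2 below sham. Scd2, a desaturase gene of the same list, lay above sham in all 3 libraries of 2 weeks (log2 fold change 0.89, limma adjusted p = 0.369). Beside these separations of Nus1, Acss2 and Scd2, 10.2% of all genes lay wholly above sham at 2 weeks and 8.6% at 4 weeks. Wholly below sham lay 7.71% at 2 weeks and 8.39% at 4 weeks.

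Of 8 other LXR targets 6 reached the level for testing, and Cd5l, a secreted protein of macrophages that is also among the Kupffer cell markers, had 3243, 1752 and 1211 normalized counts at 4 weeks against 8578, 17422 and 4728 in sham (log2 fold change −2.23, limma adjusted p = 0.092). Among 20 genes of lysosomal and intracellular cholesterol handling, 19 of them tested, the medians were 0.18 at 2 weeks and 0.07 at 4 weeks. The list holds the uptake receptors: Lrp1 had 13577, 7594 and 8588 normalized counts at 2 weeks, 15601, 7032 and 6600.1 at 4 weeks, and 6909.7, 5042 and 3807 in sham (log2 fold changes 0.91 and 0.82, limma adjusted p = 0.594 and 0.442). Lrp8 had 39.2, 43.9 and 99.7 normalized counts at 4 weeks against 19.3, 47.3 and 15.6 in sham (log2 fold change 1.16, limma adjusted p = 0.347).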
